A study of Homo sapiens with 8 samples.

Results

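Smooth muscle actin and the genes that build contractile actin filaments were followed in HAP1 cells in which a subunit of the negative elongation factor NELF had been silenced. The group consists of 10 listed genes (ACTA2, ACTG2, TAGLN, CNN1, CNN2, MYL9, TPM1, TPM2, VCL and CALD1), all widely described as regulated by serum response factor (SRF) and its MRTF cofactors, out of 60725 genes in the count table. They were found by matching Ensembl identifiers to GENCODE symbols. Of the 10 genes, 8 had enough reads to be among the 16852 genes tested, and none of these had fewer than 32 reads in any library. CNN1 and MYL9 were not tested. ACTA2, which gives the group its name, was chosen by its measured difference between the NELFE and NELFB knockdowns, so that difference is given as a description and without a p-value. The same knockdown libraries enter its fold changes against control, so these are given with whether they were called (adjusted p under 0.05) but are not independent of that choice.

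All libraries came from HAP1, a near-haploid human cell line, and from a single clone (SC9) that expresses dCas9-KRAB, a Cas9 without nuclease activity fused to a repressor domain (CRISPRi). All cells were transduced with a lentiviral guide RNA vector and put under puromycin 48 h later, and polyadenylated RNA was taken 144 h after transduction. The guide RNA was directed at ADAM22 in the 3 control libraries (pLB187), at NELFE in 3 libraries and at NELFB in 2 libraries. The study describes the knockdown samples as independent biological replicates. Each library held between 22037423 and 24444185 reads on genes. Levels are given as TMM-normalised CPM (counts scaled to a common library size) for comparisons between libraries and as TPM, which take gene length into account, for comparisons between genes.

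NELF holds RNA polymerase II in a paused state shortly after initiation. SRF binds DNA at the CArG box and works with one of 2 families of cofactors. MRTFs are held in the cytoplasm by monomeric actin and enter the nucleus when actin is polymerised, whereas TCFs are activated by MAP kinase signalling. MRTF-SRF target genes encode actin filaments and the proteins that bind, stiffen and anchor them, and ACTA2, TAGLN and CNN1 are classical markers of smooth muscle and of activated fibroblasts. HAP1 is neither.

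The guide targets followed the labels. NELFE was at 50.5, 49.4 and 48.1 CPM in control libraries, at 2.41, 2.37 and 2.98 CPM in the NELFE knockdown, and at 61.2 and 56.9 CPM in the NELFB knockdown. NELFB was at 74.4, 72.7 and 79.1 CPM in control libraries, at 63.4, 63.9 and 64.0 CPM in the NELFE knockdown, and at 3.07 and 2.78 CPM in the NELFB knockdown. ADAM22, the target of the control guide RNA, was expressed in control libraries at 13.7, 12.9 and 11.3 CPM and stood between 29.9 and 47.4 CPM in the 5 knockdown libraries, which carry no guide RNA to it. No library lacked both a guide RNA to ADAM22 and a NELF knockdown.

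Libraries of a group were not equally alike. The chi-square per degree of freedom between 2 libraries was 4.25 for NELFE knockdown replicates 1 and 2, and 21.1 and 21.4 when either was set against NELFE knockdown replicate 3. It was 5.76 for control replicates 2 and 3, and 17.1 and 29.4 when they were set against control replicate 1. The NELFB knockdown replicates differed by 5.99. Control replicate 1 and NELFE knockdown replicate 3 stood apart, and the calls of the contractile genes and of the lists are also given without both. This pair was chosen after seeing the data. Summed over the 10 genes, control replicate 1 was the lowest control library (977 CPM) and NELFE knockdown replicate 3 the highest NELFE library (2747 CPM). Leaving out both by itself lowers the rise of this sum in the NELFE knockdown and widens its gap to the NELFB knockdown. Calls without both are therefore descriptive.

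The CArG box is shown first, because it is the sequence by which SRF targets are recognised. RefSeq promoters (GRCh38.p14, from 250 bases before to 50 bases after a start) were found for 8 of the 10 genes, with 13 starts in all, and were scanned for the CArG box on both strands. TAGLN and MYL9 had no such promoter entry and were not scanned. The box is its own reverse complement, so each match was counted once, and no other motif was searched. A full match was present in 1.29% of the 35116 RefSeq promoters and a match with at most 1 letter off in 18.9%. Among the 13 starts, 2 had a full match (ACTG2 and CNN2) and 5 had at least a match with 1 letter off (also ACTA2 and 2 starts of CALD1). CNN1, TPM1, TPM2 and VCL had neither in these windows. The windows below are read along the strand of each gene, with the 10 bases of the match in capitals. The full ACTG2 matches begin 110 and 73 bases before the start, at chr2:73892888-73892917 and chr2:73892925-73892954 on the plus strand. A further ACTG2 match, 1 letter off, begins 239 bases before the start and is not printed. The CNN2 match begins 89 bases before the start, at chr19:1026509-1026538 on the plus strand. The ACTA2 matches, each 1 letter off, begin 121 and 71 bases before the downstream of its 2 starts, at chr10:88952875-88952904 and chr10:88952825-88952854 on the minus strand. The match of ACTG1, a cytoplasmic actin shown for comparison, begins 94 bases before its start at chr17:81512874-81512903 on the minus strand.
ACTG2 upstream: gaaaaaaccaCCTTATATGGtaatattgct
ACTG2 downstream: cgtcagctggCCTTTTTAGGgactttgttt
CNN2: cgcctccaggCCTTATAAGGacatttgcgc
ACTA2 upstream: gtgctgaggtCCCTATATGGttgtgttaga
ACTA2 downstream: tgtctttgctCCTTGTTTGGgaagcaagtg
ACTG1: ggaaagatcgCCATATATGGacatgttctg

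**Figure D1:**
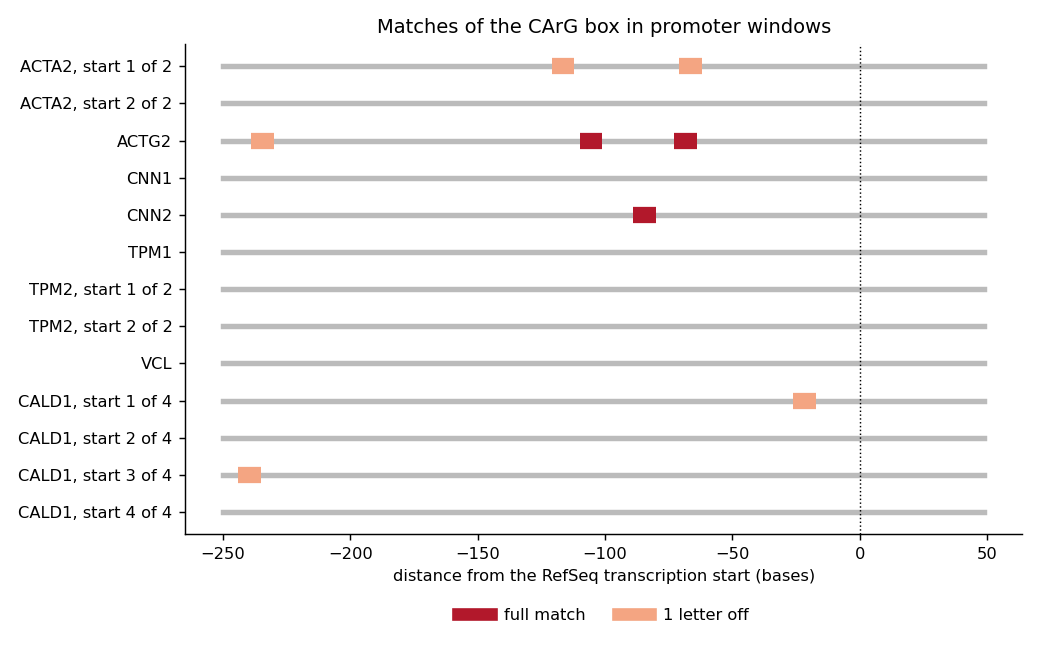
Position of each CArG box match (dark red, full match; light red, 1 letter off) along the 13 RefSeq promoter windows of the contractile genes (grey), with the distance from the transcription start in bases on the x axis. Full matches lie in the windows of ACTG2 and CNN2, between 110 and 73 bases before the start. TAGLN and MYL9 had no window and were not scanned.

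ACTA2 encodes the actin of vascular smooth muscle and of myofibroblasts. It was one of the least abundant genes of the group in control libraries, at 1.88, 2.17 and 1.40 CPM (47, 49 and 32 reads). In the NELFE knockdown it was at 2.58, 3.70 and 3.68 CPM (62, 86 and 79 reads), and in the NELFB knockdown at 14.5 and 11.96 CPM (350 and 280 reads). The 3 groups did not overlap, and both NELFB libraries stood apart from the other 6. The log2 fold change against control was 0.86 (standard error 0.22, 1.82-fold) in the NELFE knockdown and 2.86 (standard error 0.22, 7.27-fold) in the NELFB knockdown. Both were called. The call in the NELFE knockdown was lost without control replicate 3 (log2 fold change 0.71), NELFE knockdown replicate 2 (0.77) or NELFE knockdown replicate 3 (0.78).

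ACTA2 (ENSG00000107796.12) lies on chromosome 10 from 88935074 to 88991339, on the minus strand (GRCh38, GENCODE v44). Of its exon bases in GENCODE v44, 36.0% are shared with ACTA2-AS1 or FAS on the opposite strand. The authors counted on Gencode v24 without strand. Reads on bases shared in that release were counted for neither gene, and its exons were not examined. ACTA2-AS1 had 1, 2 and 3 reads in control libraries, 2, 4 and 3 in the NELFE knockdown, and 10 and 6 in the NELFB knockdown. FAS is a death receptor gene. Its outermost start lies 1040 bases from the start of the canonical ACTA2 transcript, and the starts of the 2 canonical transcripts are 38025 bases apart. It had 147, 113 and 112 reads in control libraries, 84, 104 and 101 in the NELFE knockdown, and 94 and 130 in the NELFB knockdown. Its log2 fold changes of -0.32 and -0.16 (adjusted p = 0.280 and 0.635, edgeR) did not pass the test.

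ACTG2 (ENSG00000163017.13, chromosome 2, 73892314 to 73919865, plus strand) encodes the actin of enteric smooth muscle. It was at 17.5, 32.04 and 34.5 CPM in control libraries, at 37.0, 44.4 and 89.3 CPM in the NELFE knockdown, and at 162 and 109 CPM in the NELFB knockdown. The groups did not overlap, with the third NELFE library between the other 2 NELFE libraries and the NELFB libraries. The log2 fold change was 2.27 in the NELFB knockdown (standard error 0.38, adjusted p = 0.00456, edgeR), a call that held with any 1 library left out. In the NELFE knockdown it was 1.02 and did not pass the test (standard error 0.35, adjusted p = 0.0813, edgeR), and it was 0.54 without NELFE knockdown replicate 3 (adjusted p = 0.164, edgeR).

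The cytoplasmic actins make up most of the actin mRNA of the cell. ACTB was at 2534, 2898 and 3514 CPM in control libraries, at 2519, 2371 and 3584 CPM in the NELFE knockdown, and at 3641 and 3475 CPM in the NELFB knockdown. ACTG1, whose promoter carries a full CArG match, had log2 fold changes of 0.19 and 0.42 (adjusted p = 0.430 and 0.104, edgeR), and neither these nor those of ACTB passed the test. Without control replicate 1 and NELFE knockdown replicate 3, ACTG1 was called higher in the NELFB knockdown (0.30, adjusted p = 0.00990, edgeR) and ACTB lower in the NELFE knockdown (-0.39, adjusted p = 0.00178, edgeR). Control replicate 1 was the lowest control library for ACTB and NELFE knockdown replicate 3 the highest NELFE library. Leaving out both by itself lowers the ACTB fold change in the NELFE knockdown. On the TPM scale, ACTA2 and ACTG2 together were 0.426%, 0.647% and 0.567% of all actin mRNA in control libraries, 0.772%, 0.994% and 1.33% in the NELFE knockdown, and 2.43% and 1.79% in the NELFB knockdown. These shares did not overlap between groups, and ACTG2 accounted for most of them in each library. The cardiac actin ACTC1 had no read in any library, which allows up to 3 reads per library, and the skeletal actin ACTA1 had between 0 and 4.

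TAGLN (ENSG00000149591.16, chromosome 11, 117199370 to 117207464, plus strand) encodes transgelin (SM22), a small actin-binding protein and an early marker of smooth muscle. It was at 3.20, 3.50 and 5.56 CPM in control libraries, at 12.2, 11.2 and 37.3 CPM in the NELFE knockdown, and at 69.9 and 39.0 CPM in the NELFB knockdown. No group overlapped another, although the third NELFE library lay just below the lower NELFB library. TAGLN was called in both knockdowns, with log2 fold changes of 2.30 for NELFE and 3.74 for NELFB (standard errors 0.50 and 0.53, adjusted p = 0.0176 and 0.00232, edgeR). Both were the highest of the 8 tested genes. The call in the NELFE knockdown was lost without control replicate 1 (2.15), 2 (2.21) or 3 (2.59), and its size fell to 1.52 without NELFE knockdown replicate 3, where it was still called.

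In GENCODE v44, TAGLN shares 47.8% of its exon bases (82.6% in its canonical transcript) with other counted genes. These are PCSK7 on the opposite strand and the unconfirmed transcript ENSG00000280143 on the same strand. Reads on bases shared in Gencode v24, used for counting, are missing from the TAGLN counts, and the exons of that release were not examined. PCSK7, a proprotein convertase, had log2 fold changes of 0.24 and 0.33 (adjusted p = 0.167 and 0.0827, edgeR). ENSG00000280143 had 0, 0 and 1 reads in control libraries, 4, 2 and 7 in the NELFE knockdown, and 27 and 9 in the NELFB knockdown. TAGLN2, the transgelin of nonmuscle cells, had log2 fold changes of 0.21 and 0.19, which did not pass the test.

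The calponins are actin-binding proteins that restrain actomyosin. CNN1 (ENSG00000130176.7, chromosome 19, 11538767 to 11550323, plus strand), the form of differentiated smooth muscle, had 3, 1 and 1 reads in control libraries, 2, 1 and 7 in the NELFE knockdown, and 9 and 9 in the NELFB knockdown, so the NELFB libraries held the most but every level was close to the limit of detection. CNN2 (ENSG00000064666.14, chromosome 19, 1026586 to 1039068, plus strand), the widely expressed form, was at 165, 180 and 220 CPM in control libraries, 181, 164 and 270 CPM in the NELFE knockdown, and 243 and 234 CPM in the NELFB knockdown. Its NELFE libraries overlapped with both other groups. The log2 fold changes of CNN2, 0.12 and 0.34 (adjusted p = 0.671 and 0.232, edgeR), did not pass the test, and the former was -0.13 without NELFE knockdown replicate 3. The latter was called under 3 of 8 other settings, among them the omission of control replicate 1 and NELFE knockdown replicate 3 together (0.25).

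CALD1 (ENSG00000122786.19, chromosome 7, 134744252 to 134970729, plus strand) encodes caldesmon, which binds actin, myosin and tropomyosin. It was at 216, 323 and 416 CPM in control libraries, 410, 375 and 965 CPM in the NELFE knockdown, and 803 and 719 CPM in the NELFB knockdown. The third NELFE library was the highest of all 8, and the other 2 lay within the control range. The log2 fold changes were 0.87 (standard error 0.36, adjusted p = 0.133, edgeR) and 1.26 (standard error 0.39, adjusted p = 0.0518, edgeR), and neither passed the test. The former was 0.30 without NELFE knockdown replicate 3. The latter was called when NELFE knockdown replicate 1, 2 or 3 was left out (adjusted p = 0.0435, 0.0304 and 0.00198, edgeR), with a log2 fold change of 1.26 in each of these fits, and under 4 of 8 other settings.

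Tropomyosins wind along the actin filament and control which proteins reach it. TPM1 (ENSG00000140416.19, chromosome 15, 63042620 to 63071915, plus strand) was at 242, 310 and 436 CPM in control libraries, 437, 408 and 909 CPM in the NELFE knockdown, and 907 and 790 CPM in the NELFB knockdown. As for CALD1, the third NELFE library stood at the level of the NELFB libraries and the other 2 at the upper end of the control libraries. The log2 fold change of TPM1 was 1.37 in the NELFB knockdown (standard error 0.32, adjusted p = 0.0166, edgeR). That call was lost without control replicate 1 (1.18) or 2 (1.32), or without NELFB knockdown replicate 1 (1.25) or 2 (1.46). In the NELFE knockdown it was 0.83 and did not pass the test (adjusted p = 0.0854, edgeR), and 0.36 without NELFE knockdown replicate 3.

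TPM1-AS, whose exons overlap those of TPM1 on the opposite strand, had 5, 7 and 20 reads in control libraries, 22, 16 and 63 in the NELFE knockdown, and 77 and 44 in the NELFB knockdown. It was called in the NELFB knockdown (log2 fold change 2.46, adjusted p = 0.0262, edgeR). Reads on any bases shared in Gencode v24, used for counting, were counted for neither gene. TPM2 (ENSG00000198467.13, chromosome 9, 35681992 to 35690056, minus strand), a tropomyosin abundant in muscle, was at 15.6, 11.97 and 10.9 CPM in control libraries, 11.5, 10.5 and 10.8 CPM in the NELFE knockdown, and 15.7 and 17.9 CPM in the NELFB knockdown. It was the only one of the 8 tested genes with a log2 fold change below 0, -0.23 in the NELFE knockdown (adjusted p = 0.312, edgeR) against 0.38 in the NELFB knockdown (adjusted p = 0.113, edgeR). Neither passed the test, and the latter was called without control replicate 1 (0.55, adjusted p = 0.0131, edgeR).

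VCL (ENSG00000035403.16, chromosome 10, 73995193 to 74121363, plus strand) encodes vinculin, which links actin filaments to integrins at focal adhesions. It was at 316, 314 and 334 CPM in control libraries, 435, 377 and 461 CPM in the NELFE knockdown, and 597 and 488 CPM in the NELFB knockdown. The 3 groups did not overlap, and here NELFE knockdown replicate 3 stood close to the other 2. Its changes were among the smallest that were called, with log2 fold changes of 0.40 (standard error 0.10, adjusted p = 0.0237, edgeR) and 0.76 (standard error 0.11, adjusted p = 0.00168, edgeR). The former was no longer called without control replicate 2 (0.38) or NELFE knockdown replicate 1 (0.38). AP3M1, an adaptor protein gene that shares 1109 exon bases with VCL on the opposite strand, had log2 fold changes of -0.06 and -0.05, which did not pass the test. MYL9 (ENSG00000101335.9, chromosome 20, 36541497 to 36551447, plus strand), the regulatory light chain of smooth muscle myosin, had 1 read in all 8 libraries together.

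**Figure D2:**
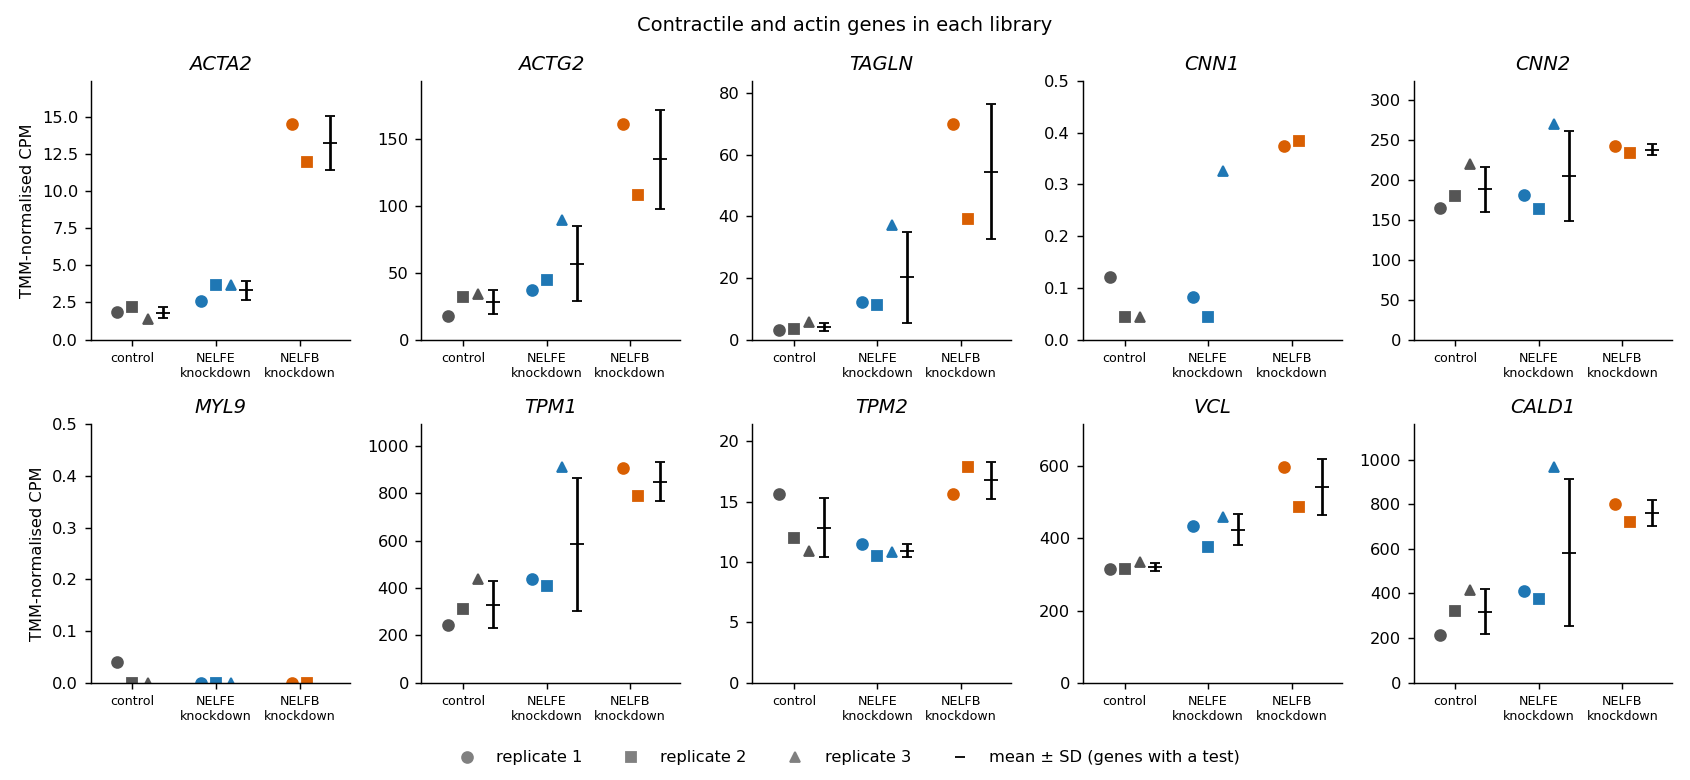
TMM-normalised CPM of each contractile gene (y axis, own scale in each panel, starting at 0) in the 3 control, 3 NELFE knockdown and 2 NELFB knockdown libraries. Each point is 1 library, with its replicate number given by the symbol, and black bars show the mean and SD of the 8 tested genes. ACTA2 stood at 11.96 and 14.5 CPM in the NELFB knockdown and at no more than 3.70 CPM elsewhere.

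By TPM on all exon bases of a gene, control cells had most CNN2 (211 ± 28.6, SD, n = 3), followed by CALD1 (133 ± 39.9), VCL (132 ± 2.75), TPM1 (91.5 ± 26.0), ACTG2 (30.0 ± 9.52), TPM2 (16.5 ± 3.39), TAGLN (2.55 ± 0.759) and ACTA2 (1.32 ± 0.296). CALD1 and VCL overlapped, as did ACTG2 and TPM2, and the other neighbours in this order did not. TPM take no account of the exon bases shared with other genes, which are most frequent in TAGLN and ACTA2. In the NELFB knockdown, CALD1 came first (322 ± 24.8 TPM, SD, n = 2) ahead of CNN2 (271 ± 7.24), and TAGLN (34.4 ± 13.8) stood above TPM2 (21.8 ± 2.03). In the NELFE knockdown TAGLN (12.6 ± 8.72 TPM, SD, n = 3) and TPM2 (14.3 ± 0.964) overlapped. ACTA2 remained the least abundant of the 8 tested genes in the NELFE (2.45 ± 0.437 TPM) and NELFB knockdowns (9.75 ± 1.32 TPM). Parts of these orders depended on the gene length used. On the longest transcript of each gene, control TPM1 (187, 234 and 322 TPM) overlapped CNN2 (222, 238 and 283) and lay above VCL (121, 118 and 122). In the NELFB knockdown TPM1 then came first (703 and 616), ahead of CALD1 (491 and 443). TAGLN (56.6 and 31.8) then overlapped TPM2 (30.4 and 34.9) in the NELFB knockdown.

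Against control, 3 of the 8 tested genes were called higher in the NELFE knockdown (ACTA2, TAGLN and VCL) and none lower, where 7.92% of all tested genes were called higher and 7.04% lower (15% in either direction). In the NELFB knockdown 5 were called higher (ACTA2, ACTG2, TAGLN, TPM1 and VCL) and none lower, where 10.6% of all tested genes were called higher and 8.88% lower (19.5% in either direction). The median log2 fold change of the 8 genes was 0.845 in the NELFE knockdown and 1.31 in the NELFB knockdown, against -0.0052 and -0.0034 for all tested genes. Every NELFB library lay above every control library for all 8 tested genes, as it did for 27% of all tested genes. Every NELFE library lay above every control library for 4 of them (ACTA2, ACTG2, TAGLN and VCL), as it did for 16.9% of all tested genes. Both comparisons use the same 3 control libraries. Some general properties of the libraries also varied. Ribosomal protein genes took 4.599% to 4.735% of reads in control libraries, 3.99% to 4.07% in the NELFE knockdown and 4.08% and 3.81% in the NELFB knockdown. Mitochondrial genes took 3.48% to 4.62%, 4.26% to 4.47%, and 4.81% and 5.01% in the same order, and the 10 most abundant genes 4.07% to 4.67%, 4.71% to 4.92%, and 5.24% and 5.29%. Their part in the changes of the contractile genes was not tested.

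**Figure D3:**
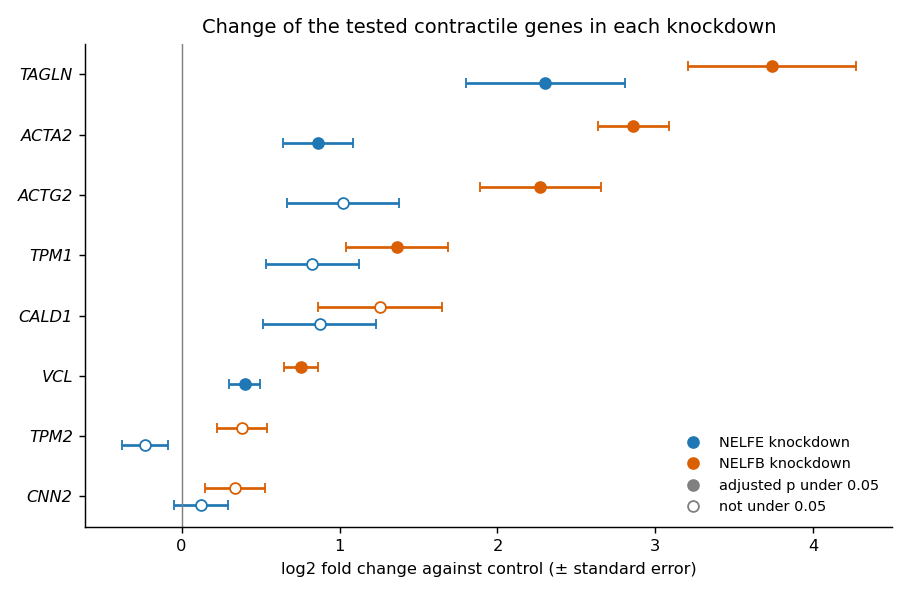
Log2 fold change against control (x axis, with standard error) of the 8 tested contractile genes in the NELFE (blue) and NELFB (orange) knockdowns, with filled points for an adjusted p under 0.05. TAGLN changed most, at 2.30 and 3.74, and TPM2 lay on either side of 0, at -0.23 and 0.38.

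Each of the 3 calls in the NELFE knockdown (ACTA2, TAGLN and VCL) was lost in some fits that left out 1 library. Only that of ACTA2 was lost without NELFE knockdown replicate 3. NELFE knockdown replicate 3 was at 909 CPM for TPM1, 965 CPM for CALD1, 37.3 CPM for TAGLN and 89.3 CPM for ACTG2, well above both other NELFE libraries, but at 3.68 CPM for ACTA2 it was level with replicate 2. Its FOS level, 7.26 CPM, was the lowest of the 3 NELFE libraries (33.8 and 70.2 CPM in the others). Among control libraries, replicate 3 was also the highest for TPM1 (436 CPM), CALD1 (416 CPM), TAGLN (5.56 CPM) and ACTG2 (34.5 CPM). That control library was the lowest for ACTA2 (1.40 CPM) and FOS (1.05 CPM). Summed over the 10 genes, control libraries held 977, 1177 and 1458 CPM, NELFE libraries 1527, 1393 and 2747 CPM, and NELFB libraries 2812 and 2408 CPM. Control replicate 1, which stood apart from the other control libraries, had the lowest sum. When this library and NELFE knockdown replicate 3 were both left out, ACTA2 (0.81) and VCL (0.32) were called in the NELFE knockdown and TAGLN (1.37) was not, and in the NELFB knockdown all 8 tested genes were called, each upwards. In that fit 17.6% of all tested genes were called higher in the NELFE knockdown and 21.1% in the NELFB knockdown. The part of these libraries' other differences in the results was not tested.

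**Figure D4:**
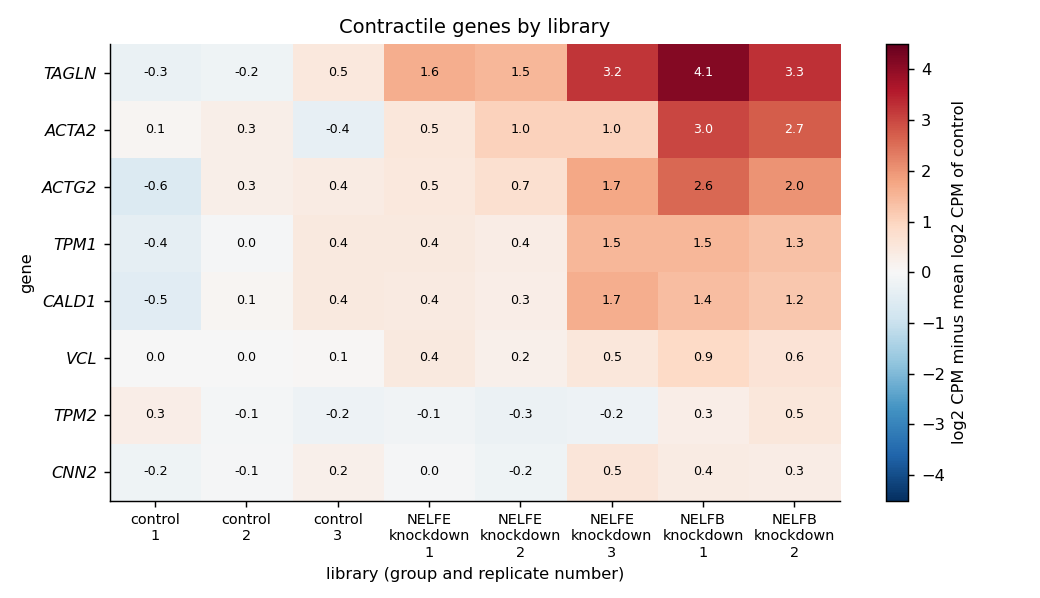
Log2 CPM of the 8 tested contractile genes (rows) in each library (columns) after subtracting the mean log2 CPM of the 3 control libraries, in red where higher and in blue where lower. NELFE knockdown replicate 3 resembles the NELFB libraries for TPM1 and CALD1 but not for ACTA2.

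The 2 knockdowns were then set against each other. This contrast chose ACTA2, so all values here are descriptive. ACTA2 had less mRNA after silencing of NELFE than after silencing of NELFB, by a log2 difference of -1.998 (standard error 0.21), 3.99-fold more in the NELFB knockdown. TAGLN followed with -1.43 (standard error 0.48, 2.70-fold) and ACTG2 with -1.25 (standard error 0.37, 2.38-fold). TPM2 (-0.61, standard error 0.16), TPM1 (-0.54, standard error 0.32), CALD1 (-0.38, standard error 0.39), VCL (-0.36, standard error 0.11) and CNN2 (-0.22, standard error 0.19) had smaller differences, all with the lower level in the NELFE knockdown. The median difference of the 8 genes was -0.58, against -0.0055 for all tested genes. Of the 8 tested genes 1, ACTA2, was called, a count that the choice of ACTA2 fixed and from which nothing is read. Of all tested genes, 0.0771% were called lower in the NELFE knockdown and 0.315% in either direction. All NELFE libraries lay below both NELFB libraries for ACTA2, ACTG2, TAGLN, TPM2 and VCL, as they did for 12.7% of all tested genes.

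Without NELFE knockdown replicate 3, ACTG2 (-1.73) and TAGLN (-2.21) were called too, and the differences of TPM1 (-1.01) and CALD1 (-0.96) were larger but not called. With control replicate 1 left out as well, ACTA2, CNN2 (-0.47), TPM2 (-0.61) and CALD1 (-0.96) were called, where 1.08% of all tested genes were called lower in the NELFE knockdown, and ACTG2 (-1.73) and TAGLN (-2.21) were not. TPM1 and VCL were called neither there nor with any 1 library left out.

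Other genes of the actin and SRF pathways were taken from lists chosen for their role. Of 14 other SRF-MRTF targets, all tested, 4 were called higher in the NELFE knockdown (FLNA, THBS1, CCN1 and CCN2) and 8 in the NELFB knockdown, and none lower, against 7.92% and 10.6% of all tested genes called higher. The median log2 fold changes of the list were 0.22 and 0.57. CCN2, a matricellular growth factor and a target of YAP as well, was at 4.85, 5.14 and 5.95 CPM in control libraries, 15.5, 17.5 and 34.4 CPM in the NELFE knockdown, and 54.6 and 47.7 CPM in the NELFB knockdown (log2 fold changes 2.08 and 3.27, adjusted p = 0.00169 and 1.34e-04, edgeR). THBS1, thrombospondin, was at 12.8, 29.4 and 38.2 CPM, at 115.5, 85.4 and 205 CPM, and at 255 and 189 CPM in the same order (2.34 and 3.06, adjusted p = 0.0136 and 0.00488, edgeR).

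Of 8 immediate early genes described as SRF-TCF targets, 2 were called higher in the NELFE knockdown (FOS and EGR3) and 5 in the NELFB knockdown (FOS, FOSB, EGR3, IER2 and JUNB), with medians of 0.73 and 1.52 and the same shares of all tested genes (7.92% and 10.6%). FOS, a subunit of AP-1, was at 4.04, 3.90 and 1.05 CPM in control libraries, 33.8, 70.2 and 7.26 CPM in the NELFE knockdown, and 99.1 and 124 CPM in the NELFB knockdown (3.62 and 5.20, adjusted p = 0.0374 and 0.0113, edgeR). EGR1, at 18.7, 60.1 and 9.37 CPM in control libraries, overlapped with the NELFE knockdown (60.5, 194 and 23.8 CPM) and was not called in either knockdown (adjusted p = 0.303 and 0.0802, edgeR).

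SRF and its cofactors were picked with their values in view. SRF was at 72.6, 82.7 and 92.5 CPM in control libraries, 81.1, 74.9 and 98.2 CPM in the NELFE knockdown, and 101 and 97.0 CPM in the NELFB knockdown (0.04 and 0.26, adjusted p = 0.865 and 0.179, edgeR). MRTFA (0.05 and 0.28) and MRTFB (0.14 and 0.23) did not pass the test. Without control replicate 1 and NELFE knockdown replicate 3, MRTFA (0.30, adjusted p = 0.00662, edgeR) and MRTFB (0.19, adjusted p = 0.0287, edgeR) were called higher in the NELFB knockdown. MYOCD, the cofactor of smooth and cardiac muscle, had no read in any library.

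Among other members of the same gene families, 9 of 12 were tested, and the only one called was MYL6, an essential light chain of myosin, in the NELFB knockdown (0.54, adjusted p = 0.0483, edgeR). Of 10 genes of the nonmuscle myosin motor, 9 were tested, none was called in the NELFE knockdown and 4 were called higher in the NELFB knockdown (MYH9, PPP1R12A, PPP1R12B and MYL6), with log2 fold changes of 0.28 to 0.58. MYL6 is in both lists. Beside these counts, 7.92% of all tested genes were called higher in the NELFE knockdown and 10.6% in the NELFB knockdown. The 1 of 9 family members called in the NELFB knockdown lay near that share. Of 17 focal adhesion genes, 3 were called higher in the NELFE knockdown (ACTN4, PARVA and ITGAV) and 7 in the NELFB knockdown, beside 7.92% and 10.6% of all tested genes. ITGAV, an integrin subunit, changed by 0.65 and 1.00 (adjusted p = 0.00309 and 3.56e-04, edgeR), whereas PARVA, parvin, had only 5, 8 and 2 reads in control libraries. Of 18 genes of actin filament turnover, GSN and TMSB4X were called higher in each knockdown and DSTN in the NELFB knockdown, while ARPC1B, a subunit of the Arp2/3 complex, was called lower in each (-0.39 and -0.47, adjusted p = 0.0470 and 0.0288, edgeR). These counts, 2 of 18 higher and 1 lower in the NELFE knockdown and 3 higher and 1 lower in the NELFB knockdown, lay near the shares of all tested genes (7.92% and 7.04%, and 10.6% and 8.88%), as did the medians, 0.06 and 0.07. No gene of these 6 lists was called between the knockdowns, where 0.315% of all tested genes were.

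These counts changed when control replicate 1 and NELFE knockdown replicate 3 were both left out, and so did the background: 17.6% of all tested genes were then called higher and 18.4% lower in the NELFE knockdown, and 21.1% and 20.4% in the NELFB knockdown. Of the SRF-MRTF targets, 4 were then called higher in the NELFE knockdown (FLNA, ITGA5, THBS1 and CCN2) and 12 in the NELFB knockdown, with medians of 0.05 and 0.54. Of the immediate early genes 5 and 6 were called higher, with medians of 1.03 and 1.65. Among the 9 family members tested, 4 were called lower in the NELFE knockdown (ACTB, CNN3, TPM3 and MYL12B), and in the NELFB knockdown ACTG1, TPM4 and MYL6 were called higher and TPM3 lower. The median of that list was -0.17 and 0.15. Of the 9 motor genes tested, PPP1R12B was called higher and MYL12B lower in the NELFE knockdown, and 6 were called higher in the NELFB knockdown. Of the focal adhesion genes, 4 were called higher in the NELFE knockdown and 9 in the NELFB knockdown, with LIMS1 lower in each. Of the 18 actin turnover genes, 2 were called higher and 5 lower in the NELFE knockdown and 6 and 5 in the NELFB knockdown. Between the knockdowns, 10 of the SRF-MRTF targets, 4 family members, 4 focal adhesion genes, 1 motor gene and 1 turnover gene were called, all lower in the NELFE knockdown, beside 1.08% of all tested genes. ACTN1, ZYX and MYH9 are each in more than 1 of these lists, so the calls were of 17 genes. Some calls held in few of the 8 fits that left out 1 library. In the NELFE knockdown, FOS and PARVA were called only without NELFE knockdown replicate 3, and CCN1 only without control replicate 3. CCN2, THBS1, FLNA, EGR3, ITGAV and GSN were called in both knockdowns in each of the 8.

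**Figure D5:**
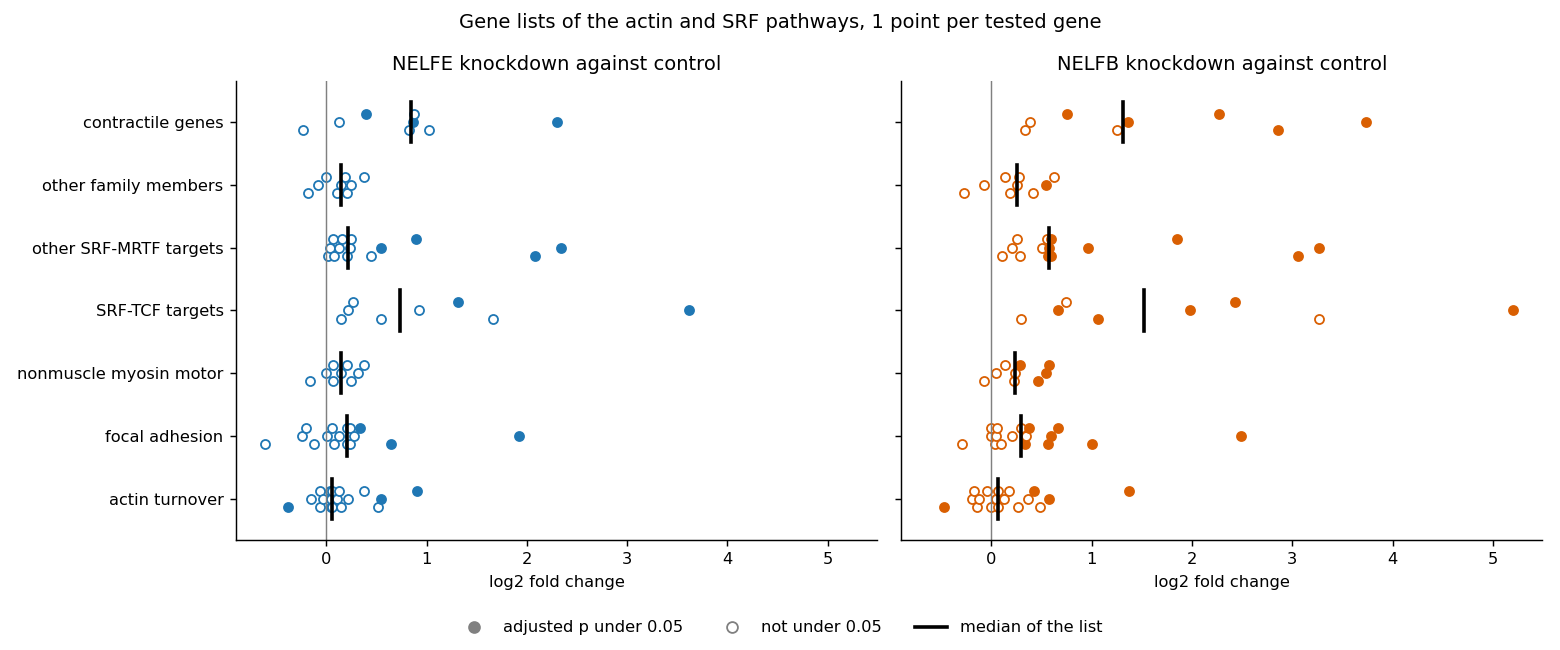
Log2 fold change against control (x axis) of each tested gene of the actin and SRF lists (rows) in the NELFE (left) and NELFB (right) knockdowns, with filled points for an adjusted p under 0.05 and a black line at the median of the list. The medians of the contractile genes were 0.845 and 1.31 and those of the actin turnover genes 0.06 and 0.07.

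Markers of other cell types were read in the same libraries, since in bulk RNA a change in the number of cells of a type cannot be told apart from a change in RNA per cell. Of 8 smooth muscle markers, 4 were tested and LMOD1, leiomodin, was called higher in both knockdowns, beside 7.92% (NELFE) and 10.6% (NELFB) of all tested genes. LMOD1 had 31, 26 and 22 reads in control libraries, 58, 35 and 47 in the NELFE knockdown, and 101 and 68 in the NELFB knockdown (0.86 and 1.66, adjusted p = 0.0499 and 0.00296, edgeR), and its call in the NELFE knockdown held in 1 of 8 fits with a library left out. HSPB6, a small heat shock protein, was not tested and had fewer reads after knockdown, with 8, 5 and 5 in control libraries, 2, 1 and 2 in the NELFE knockdown, and 2 and 1 in the NELFB knockdown. SYNPO2, synaptopodin 2, had log2 fold changes of -0.26 and 0.02, which did not pass the test. MYH11, smooth muscle myosin, had 13 to 25 reads per library with log2 fold changes of 0.25 and 0.16, which did not pass the test. DES had 1 read in all libraries together and MYOCD none. The summed level of the list was 31.3 to 38.6 CPM in control libraries, 38.3 to 41.5 CPM in the NELFE knockdown, and 39.9 and 48.96 CPM in the NELFB knockdown, with SMTN, smoothelin, as its most abundant gene.

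Of 9 fibroblast markers, 4 were tested, and COL3A1 and PDGFRA were called higher in both knockdowns. Of all tested genes, 7.92% were called higher in the NELFE knockdown and 10.6% in the NELFB knockdown. COL3A1, the type III collagen chain, had 5, 7 and 5 reads in control libraries, 195, 61 and 94 in the NELFE knockdown, and 647 and 282 in the NELFB knockdown, with log2 fold changes of 4.35 and 6.30. Without control replicate 1 and NELFE knockdown replicate 3 these were 4.32 and 6.17, and the former was not called (adjusted p = 0.111, edgeR). DCN, LUM and FAP had no read in any library, THY1 had 1 to 7, and COL1A1 had log2 fold changes of -0.28 and 0.06, which did not pass the test. The list summed to 139 to 153 CPM in control libraries, 164 to 206 CPM in the NELFE knockdown, and 215 and 195 CPM in the NELFB knockdown, mostly from PDGFRA. Of 11 striated muscle markers, 6 had no read in any library and MYH3, an embryonic myosin, was the only one tested (0.64 and 1.09, adjusted p = 0.0563 and 0.00707, edgeR). The list summed to 2.495 to 3.72 CPM in control libraries, 4.69 to 5.07 CPM in the NELFE knockdown, and 7.68 and 5.72 CPM in the NELFB knockdown.

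Of 5 epithelial markers, KRT8 and KRT18 were tested. The shares of all tested genes called higher were again 7.92% in the NELFE knockdown and 10.6% in the NELFB knockdown. KRT8 was called higher in both knockdowns (1.38 and 1.96, adjusted p = 0.0278 and 0.00640, edgeR) and KRT18 in the NELFB knockdown (0.74, adjusted p = 0.0114, edgeR), and without control replicate 1 and NELFE knockdown replicate 3 KRT8 was called in neither (1.28 and 2.11, adjusted p = 0.236 and 0.0750, edgeR). EPCAM had 1 to 7 reads per library, CDH1 0 to 4 and KRT19 none. The list summed to 31.2 to 33.8 CPM in control libraries, 36.6 to 57.9 CPM in the NELFE knockdown, and 74.4 and 49.9 CPM in the NELFB knockdown, mostly from KRT18. No endothelial marker of 4 had enough reads to be tested, and the list stayed at or below 0.622 CPM in every library, with KDR as its most abundant gene in control libraries. Of 6 blood markers only CD34 was tested, with 3, 3 and 1 reads in control libraries, 16, 6 and 28 in the NELFE knockdown, and 67 and 21 in the NELFB knockdown. It was called higher in both (2.82 and 4.14, adjusted p = 0.0451 and 0.00541, edgeR), and without control replicate 1 and NELFE knockdown replicate 3 only in the NELFB knockdown (2.33 and 4.31). PTPRC had 0 to 2 reads and HBG1 none. The blood list summed to at most 0.399 CPM in control libraries, 1.58 CPM in the NELFE knockdown and 3.03 CPM in the NELFB knockdown, where its most abundant control gene was CD33. The part of these markers in the changes of the contractile genes was not tested.

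The genes most like ACTA2 across the 8 libraries were found among 12793 genes by the Pearson correlation of log2 CPM. They were DENND2B (0.981), ALCAM (0.967), FZD7 (0.965), CCND2 (0.964) and DIPK1A (0.963). CCND2, cyclin D2, was at 29.0, 30.6 and 30.3 CPM in control libraries, 30.7, 39.6 and 44.6 CPM in the NELFE knockdown, and 60.9 and 62.6 CPM in the NELFB knockdown. Within the contractile group, ACTG2 (0.890) and VCL (0.879) were most like ACTA2, followed by TAGLN (0.873), TPM1 (0.763), CALD1 (0.699), TPM2 (0.622) and CNN2 (0.508). These values describe 8 libraries that share their groups, and ACTG2 itself ranked only 114 of the 12793 genes compared.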

How the data were processed

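The counts deposited by the authors are raw, whole-number reads per gene from single-end reads of 65 bases, aligned and counted with STAR (2.5.4a in the submitters' processing notes) on GRCh38 with Gencode v24, without strand, normalization or filter. Reads that overlap several genes are in none of them. Library totals ran from 22037423 to 24444185, and limits from counts cover counting error only. Symbols came from GENCODE v44 (99.9% of counts matched).

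All 8 libraries entered 1 model in edgeR 4.0.16 (R 4.3.3; filterByExpr, TMM, robust quasi-likelihood test, Benjamini-Hochberg over 16852 genes, called under 0.05). CPM were TMM-normalised, and TPM used GENCODE exon lengths. Tests were checked on simulated counts. The contractile genes and all lists were chosen with earlier results of these data known. Named genes are the 10 contractile genes, the guide targets, overlapping and neighbouring genes, up to 4 genes per list by size of change or abundance, and the 5 genes most like ACTA2. SRF, its cofactors, ACTG1, TAGLN2, EGR1 and those named only to spell out a count or a marker were picked with their values in view. Settings tried besides this one were DESeq2 1.42.0, its size factors, 2 other filters, a prior count of 2, a replicate block, only the libraries compared, and each library left out. Leaving out control replicate 1 together with NELFE knockdown replicate 3 was chosen after seeing the data. Promoters came from RefSeq (GRCh38.p14). The list of genes upstream of SRF is not reported here.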

Additional observations from a re-analysis of the deposited data

Results flagged for a closer look

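The log2 difference of ACTA2 between the knockdowns (NELFE minus NELFB) was -1.998. It is listed because it passed the test, but this difference placed ACTA2 in the group and is a description only. The other genes described that differed between the knockdowns are the guide targets themselves, NELFE (-4.51) and NELFB (4.44).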

How the results depend on the processing

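With 2 or 3 libraries in a group, the calls depended on single libraries. Leaving out 1 library at a time gave 990 to 3123 called genes in the NELFE knockdown (1 to 3 of them contractile genes), 603 to 4316 in the NELFB knockdown (4 to 6) and 27 to 78 between the knockdowns (1 to 3), against 2520, 3290 and 53 (40 higher and 13 lower in the NELFE knockdown). The log2 fold change of CNN2 in the NELFE knockdown ran from -0.13 to 0.26 over these fits, and it was -0.13 without NELFE knockdown replicate 3 and -0.21 with control replicate 1 left out as well. With both of these left out, 5980 genes were called in the NELFE knockdown, 6888 genes and 8 contractile genes in the NELFB knockdown, and 296 genes (117 higher, 179 lower) and 4 contractile genes between the knockdowns (ACTA2, CNN2, TPM2 and CALD1). The cause was not tested. Between the knockdowns, DESeq2 called 90 genes (54 higher, 36 lower) and the fit with no filter on low counts 161 (66 higher, 95 lower) with 2 contractile genes (ACTA2 and TPM2). Without a filter, TAGLN was not called in the NELFE knockdown, ACTG2 and TPM1 were not called in the NELFB knockdown, and CNN1 and CNN2 were. The replicate block, with the replicate number of the labels, gave 4763 genes and 6 contractile genes in the NELFE knockdown (ACTA2, ACTG2, TAGLN, TPM1, VCL and CALD1), 4811 genes and 7 contractile genes in the NELFB knockdown (CNN2 at 0.51 and CALD1 at 1.62 besides the 5), and 195 genes (69 higher, 126 lower) and 6 contractile genes between the knockdowns (ACTA2, TAGLN, CNN2, TPM1, VCL and CALD1). Of the 6 other gene lists, none of whose genes was called between the knockdowns, the block called 13 genes, the 2 libraries' joint omission 17, no filter 5, DESeq2 2 and the omission of NELFE knockdown replicate 3 alone 2, all lower in the NELFE knockdown. After subtraction of group means, same-numbered control and NELFE libraries correlated at 0.275, 0.054 and 0.451, and those with unlike numbers at -0.377 to 0.231. Each control library correlated best with the NELFE library of its number, but NELFE knockdown replicate 2 did so with control replicate 1 (0.231). Same-numbered NELFE and NELFB libraries correlated at 0.103 and 0.199, and same-numbered control and NELFB libraries at -0.021 and -0.013. These values do not settle whether the numbers pair the libraries. DESeq2, its size factors in edgeR and a minimum of 10 counts in every library left the calls of the contractile genes as they were, except that CALD1 was also called in the NELFB knockdown under the last. With only the libraries compared in the fit, ACTA2 was not called in the NELFE knockdown and CALD1 was in the NELFB knockdown. At 32 to 86 reads in control and NELFE libraries, depth limits ACTA2, and CNN1 and MYL9 had too few reads for the test outside the fit with no filter.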
